A study of Homo sapiens with 6 samples.

Results

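Matrix metalloproteinases (MMPs) and their tissue inhibitors (TIMPs) were followed in CAL-27, an established human line of tongue squamous carcinoma, grown either as adherent parental cells or as spheres raised in suspension. The set held 10 genes picked by symbol: 7 metalloproteinases (MMP1, MMP2, MMP3, MMP9, MMP10, MMP13 and MMP14) and 3 inhibitors (TIMP1, TIMP2 and TIMP3). All 10 were found among the 17110 genes of the deposited table. RNA-seq of total RNA was available for 6 libraries, 3 parental and 3 sphere, with no genetic change or added agent named in the labels, and the series' text presents suspension culture as a way to enrich cancer stem cells. The sources used here give no culture age, medium or further treatment for either group.

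MMPs are zinc-dependent endopeptidases that together cut most proteins of the extracellular matrix. Most are secreted as inactive zymogens whose propeptide must be removed, by plasmin, by other MMPs or, for the membrane-bound kinds, by furin-like convertases inside the cell. TIMPs bind the active site of mature MMPs and block it. In squamous carcinoma and in wounded epithelium, collagenases and stromelysins are known products of keratinocytes at the migrating or invading edge.

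Values are TPM, transcript abundances scaled by transcript length and to one fixed total per library, so levels of different genes can be compared but the sequencing depth is unknown. Each library listed 15045 to 15448 genes above 0. Across genes, which are not independent replicates, the correlation of log2(TPM + 1) was 0.995 to 0.997 for libraries of one group and 0.840 to 0.842 for libraries of different groups. Nothing in the labels says that replicates were grown separately; the p-values therefore cover the spread among these libraries alone, which may be technical. Differences between groups are given as sphere minus parental on the log2(TPM + 1) scale, with the standard error (SE) and the Benjamini-Hochberg adjusted p of limma fitted across all 12261 genes with a mean of at least 1 TPM. Changes of scarce transcripts come out smaller on this scale than as ratios of TPM. The libraries are bulk RNA, in which fewer cells of a kind and less RNA per cell cannot be told apart.

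Sphere libraries held far more MMP1 and MMP10 transcript than parental libraries, more MMP14 and TIMP1, and less MMP13 and TIMP2. Of the 10 genes, 8 passed the expression filter, and 6 of these rose and 2 fell at an adjusted p under 0.05 in limma. Of all tested genes 83.4% passed, 35.1% upward and 48.2% downward. With median-of-ratios scaling the balance turned, with 5273 genes higher and 4900 lower beside 4309 and 5912 here. The shares of 35.1% and 48.2% set beside the lists further on belong to the fit without that scaling. They are no background for list counts given with it. Parental and sphere values were fully separate for each of the 8 tested members, as they were for 84.6% of all tested genes. With most genes called, nothing is read from such counts about the members or about the lists further on. By size, the differences of MMP1 and MMP10 lay at the upper edge of the distribution. The median difference of the 8 was 0.90, beside -0.13 over all tested genes. The members were chosen with earlier results of these data known, and MMP9 and MMP13 passed the filter only through the group where they were higher. Nothing about the set as a whole is therefore read from this median.

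**Figure D1:**
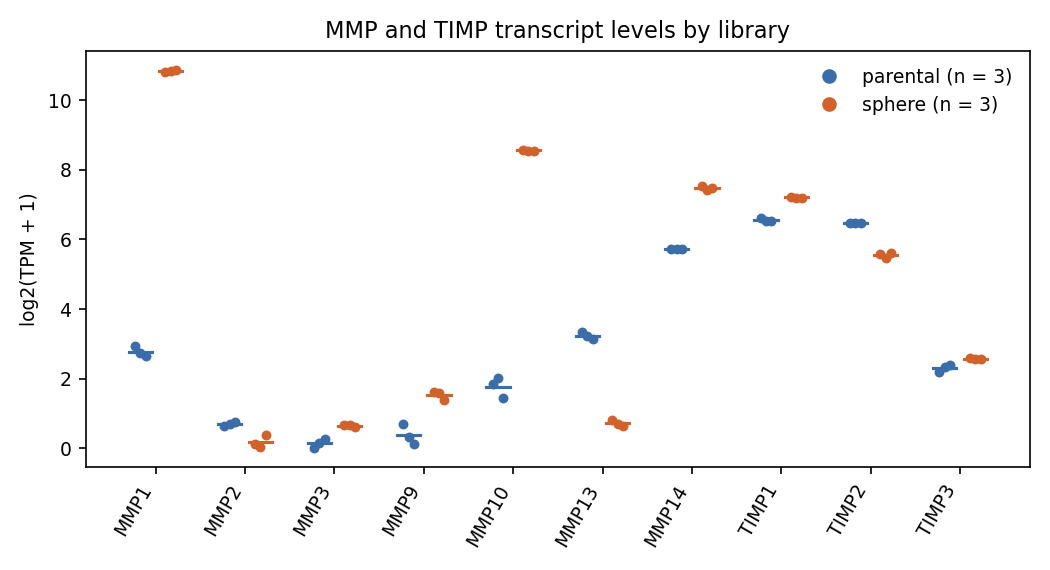
Transcript level of each of the 10 genes in each library, as log2(TPM + 1) on the vertical axis, with 3 parental (blue) and 3 sphere (orange) libraries as points and the group mean of the log values as a bar. MMP1 and MMP10 show the widest separation, from means of 5.88 and 2.46 TPM to 1841 and 378 TPM.

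MMP1, the interstitial collagenase that opens the triple helix of fibrillar collagens, was at 6.61, 5.72 and 5.31 TPM in the parental libraries and at 1812, 1824 and 1887 TPM in the sphere libraries. Every sphere library lay far above every parental one, and the spread within groups was small against that gap. The means of 5.88 ± 0.66 and 1841 ± 40.2 TPM (SD, n = 3 each) differ 313-fold, and the difference was 8.07 on the log2 scale (SE 0.06, limma adjusted p = 2.15e-13). MMP1 ranked 9471 of 17110 genes by level in parental cells and 88 in sphere cells. Its difference lay at percentile 99.9 of all tested genes.

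MMP13, the other collagenase of the set and one that prefers the collagen of cartilage, went the opposite way. Its values were 9.14, 8.34 and 7.79 TPM in parental and 0.76, 0.61 and 0.57 TPM in sphere libraries. The groups were apart and sphere libraries were the low ones, with means of 8.42 ± 0.68 and 0.65 ± 0.10 TPM (SD, n = 3 each), 13.03-fold lower in spheres. The log2 difference was -2.52 (SE 0.10, limma adjusted p = 5.82e-09), at percentile 1.16 of all tested genes. MMP13 passed the filter through its parental values alone, so its call is partly built into the filter. MMP13 was the more abundant collagenase in each parental library, at 58.9 ± 0.8% of the MMP1 and MMP13 TPM together (SD, n = 3). In sphere libraries it made up 0.035 ± 0.006% of that sum. Summed over both genes, collagenase TPM was 13.1 to 15.8 in parental and 1813 to 1887 in sphere libraries.

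Stromelysins are MMPs of broad specificity that cut proteoglycans, laminin and fibronectin and also activate other MMP zymogens. MMP10, stromelysin-2, was at 2.59, 3.05 and 1.73 TPM in parental and at 384, 376 and 374 TPM in sphere libraries. As with MMP1, every sphere library stood far above every parental one. The means were 2.46 ± 0.67 and 378 ± 5.2 TPM (SD, n = 3 each), a 154-fold ratio and a log2 difference of 6.79 (SE 0.12, limma adjusted p = 4.20e-11), at percentile 99.8. MMP10 moved from rank 10980 to rank 333 of all genes. MMP1 was above MMP10 in all 6 libraries, by 1.88 to 3.07 times in parental and by 4.73 to 5.05 times in sphere libraries.

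MMP3, stromelysin-1 and the closest relative of MMP10 in the set, was near 0 in both groups. It was listed at 0, 0.10 and 0.21 TPM in parental and at 0.58, 0.58 and 0.53 TPM in sphere libraries, below the filter, so it was not tested. With no filter its log2 difference was 0.51 (limma adjusted p = 6.07e-04). Part of the MMP3 value could not be assigned with certainty: 3% of the 50-base words of the longest coding MMP3 transcript in GENCODE 29 also occur in MMP10 transcripts, and 9.81% match the longest MMP10 transcript with at most 2 mismatches, at a read length of 50 bases. The sources used here do not give how such reads were divided. These shares of words do not bound the doubt, because sphere libraries held 378 TPM of MMP10 beside 0.56 TPM of MMP3 on average. How much of the MMP3 value, or of its difference, comes from MMP10 reads was not tested. No 50-base word of MMP3 or MMP10 matched the longest MMP1 transcript with fewer than 8 mismatches, so reads of MMP1 and MMP10 can be told apart. In GENCODE 29, 2.92% of the 50-base words of MMP1 lie on the opposite strand of WTAPP1 transcripts, a pseudogene that overlaps MMP1 and is not listed in the table, and without strand their reads could not be separated.

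MMP14, the membrane-anchored MT1-MMP, cuts collagen at the cell surface and activates MMP2 and MMP13 zymogens. It was the leading MMP of parental cells, at 51.8, 52.1 and 51.7 TPM, and was at 184, 170 and 178 TPM in sphere libraries. The parental values were nearly identical and all sphere values lay above them. The means of 51.9 ± 0.2 and 178 ± 6.8 TPM (SD, n = 3 each) differ 3.42-fold, with a log2 difference of 1.76 (SE 0.04, limma adjusted p = 2.20e-10). MMP14 stayed the third most abundant member in both groups, behind TIMP1 and TIMP2 in parental and behind MMP1 and MMP10 in sphere libraries.

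The gelatinases, which digest denatured collagen and the collagen of basement membranes, were scarce in every library. MMP9 was at 0.62, 0.24 and 0.08 TPM in parental and at 2.04, 1.98 and 1.61 TPM in sphere libraries. Sphere libraries were the higher, with a log2 difference of 1.15 (SE 0.16, limma adjusted p = 8.15e-05). MMP9 passed the filter through its sphere values alone, so its call is partly built into the filter. Of its 50-base words, 11.1% lie on the opposite strand of the antisense gene SLC12A5-AS1, which is not listed in the table. The level of that gene is thus unknown, and the share of words does not bound how uncertain the MMP9 value is. MMP2 was at 0.56, 0.62 and 0.67 TPM in parental and at 0.09, 0.03 and 0.31 TPM in sphere libraries, below the filter. With no filter its log2 difference was -0.51 (limma adjusted p = 0.00207). MMP2, whose zymogen MMP14 activates, was the least abundant member in sphere libraries.

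**Figure D2:**
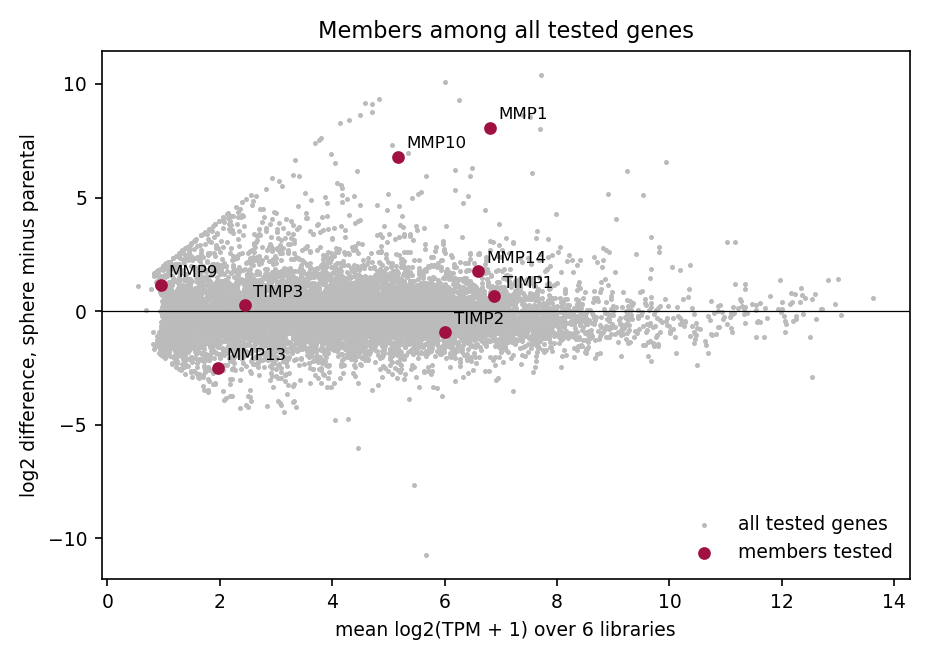
Log2 difference (sphere minus parental) against the mean log2(TPM + 1) over 6 libraries, for the 12261 tested genes (grey) and the 8 tested members (dark red, named). MMP1 and MMP10 lie at the upper edge, MMP13 near the lower edge at its level, and TIMP3 within the bulk.

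Among the inhibitors, TIMP1 and TIMP2 moved apart. TIMP1, a secreted inhibitor of most MMPs that is a weak inhibitor of MMP14, was at 97.3, 90.8 and 91.2 TPM in parental and at 150, 147 and 146 TPM in sphere libraries. All sphere values were higher, at means of 93.1 ± 3.7 and 147 ± 2.2 TPM (SD, n = 3 each) and a log2 difference of 0.66 (SE 0.04, limma adjusted p = 1.78e-07). TIMP2, which inhibits MMP14 and also forms the complex through which MMP14 activates MMP2, was at 88.6, 88.2 and 87.3 TPM in parental and at 47.1, 43.0 and 48.0 TPM in sphere libraries. Here the sphere values were the lower ones, at means of 88.0 ± 0.7 and 46.0 ± 2.7 TPM (SD, n = 3 each) and a log2 difference of -0.92 (SE 0.05, limma adjusted p = 5.79e-08). TIMP1 was 1.03 to 1.10 times TIMP2 in parental and 3.03 to 3.41 times TIMP2 in sphere libraries.

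TIMP3, the inhibitor that stays bound to the matrix and also blocks several ADAM proteases, had the smallest log2 difference of the tested members. Its values were 3.57, 4.07 and 4.25 TPM in parental and 4.99, 4.96 and 4.94 TPM in sphere libraries. Each sphere value was above each parental one, and the log2 difference of 0.27 (95% interval 0.08 to 0.46, limma adjusted p = 0.0134) lay at percentile 68.5 of all tested genes. TIMP3 lies inside the SYN3 gene on the other strand, and whether counting used strand is not given here. SYN3, which encodes a synapsin of neurons, was listed at 34.2 ± 4.3 TPM in parental cells and 33.7 ± 1.2 TPM in spheres (SD, n = 3 each), well above TIMP3 (limma adjusted p = 0.88 for SYN3). No 50-base word of the longest TIMP3 transcript occurs in another gene's transcripts in GENCODE 29 on either strand. The annotation behind the values is not given, so this does not show how reads at this locus were assigned. Whether SYN3 and TIMP3 reads were mixed was not tested. TIMP1 lies likewise inside SYN1, which was at no more than 0.07 TPM in any library. TIMP2 shares 4.19% of its words with CEP295NL, which overlaps it and was at no more than 0.27 TPM, and 8.83% with the opposite strand of AC022966.1.

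By level, the order of the members in parental libraries was TIMP1, TIMP2, MMP14, MMP13, MMP1, TIMP3 and MMP10, whose ranges over libraries did not touch, followed by MMP2, MMP9 and MMP3, whose ranges overlapped from one to the next. In sphere libraries the order was MMP1, MMP10, MMP14, TIMP1, TIMP2, TIMP3 and MMP9, again with separate ranges, followed by MMP13 and MMP3, which overlapped, and MMP2.

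Added up, TPM of the 7 MMPs came to 71.3, 70.2 and 67.5 in parental and to 2383, 2373 and 2442 in sphere libraries. The sum of the 3 TIMPs was 189.5, 183 and 183 in parental and 202, 194.5 and 199 in sphere libraries. MMP TPM was thus 0.370 to 0.384 times TIMP TPM in parental and 11.8 to 12.3 times TIMP TPM in sphere libraries. These sums are given as a description with no test, and MMP mRNA is not active enzyme.

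The makeup of the MMP sum also differed. MMP14 made up 74.5 ± 2.0% of it in parental libraries, MMP13 12.1 ± 0.7%, MMP1 8.43 ± 0.75% and MMP10 3.51 ± 0.90% (SD, n = 3). In sphere libraries MMP1 made up 76.7 ± 0.6%, MMP10 15.7 ± 0.4% and MMP14 7.4 ± 0.28% (SD, n = 3). TIMP1 made up 50.3 ± 0.9% of the TIMP sum in parental and 74.3 ± 1.0% in sphere libraries.

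**Figure D3:**
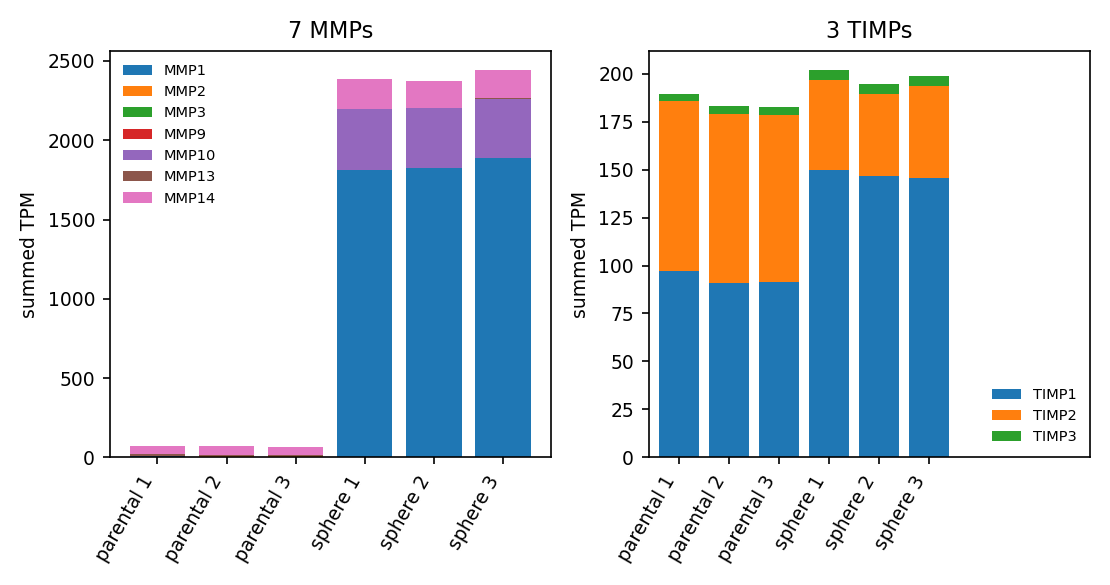
Stacked TPM of the 7 MMPs (left) and the 3 TIMPs (right) in each library, on linear axes that start at 0 and differ in scale. The MMP sum goes from at most 71.3 to at least 2373 TPM, mainly MMP1 and MMP10, while the TIMP sums lie between 183 and 202 TPM in all 6 libraries.

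Several of these genes are neighbours. In RefSeq (GRCh38.p14) 9 MMP genes lie in a row on chromosome 11, in the order MMP7, MMP20, MMP27, MMP8, MMP10, MMP1, MMP3, MMP12 and MMP13, with no other gene of the table between them. Only 6 of the 9 are listed in the table. MMP10 and MMP1, which are next to each other, were those that rose among the tested genes of the cluster. MMP7 (matrilysin, a small secreted MMP of glandular epithelium) fell from 3.04 ± 0.60 to 0.87 ± 0.58 TPM (SD, n = 3 each; limma adjusted p = 5.13e-04), and MMP13 at the other end fell as given above. MMP3 and MMP12, between MMP1 and MMP13, were at no more than 0.58 TPM in any library and were not tested.

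The 5 nearest tested genes on each side of the cluster moved both ways. Before MMP7 lie CFAP300, YAP1, BIRC3, BIRC2 and TMEM123. YAP1, the transcriptional coactivator of the Hippo pathway, rose from 65.7 ± 6.2 to 176 ± 7.1 TPM (limma adjusted p = 2.02e-08). BIRC3, an inhibitor of apoptosis and NF-kB target, fell from 44.6 ± 1.6 to 12.5 ± 1.0 TPM (limma adjusted p = 4.06e-09). BIRC2, its near relative, rose slightly from 51.1 ± 3.0 to 59.7 ± 0.6 TPM and TMEM123 fell from 167 ± 5.4 to 137 ± 8.3 TPM (limma adjusted p = 0.00222 and 3.79e-04). CFAP300 did not pass, at 1.41 ± 1.66 and 0.86 ± 0.32 TPM (limma adjusted p = 0.69). Past MMP13, DCUN1D5 (91.7 ± 2.8 to 49.8 ± 2.5 TPM), DYNC2H1 (5.85 ± 0.36 to 2.23 ± 0.17 TPM) and CARD16 (58.3 ± 10.01 to 27.6 ± 2.6 TPM) fell, and CASP1, which matures interleukin-1 beta, rose from 74.2 ± 4.3 to 123 ± 2.1 TPM (limma adjusted p at most 1.08e-05). CARD16 is a near copy of one end of CASP1, so reads may have been split between them and both values are uncertain. CASP4 was at 233 ± 10.04 and 216 ± 1.8 TPM (SD, n = 3 each; limma adjusted p = 0.0289), a call that median-of-ratios scaling turned in sign. The largest difference among these 10 neighbours was -1.75, of BIRC3.

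**Figure D4:**
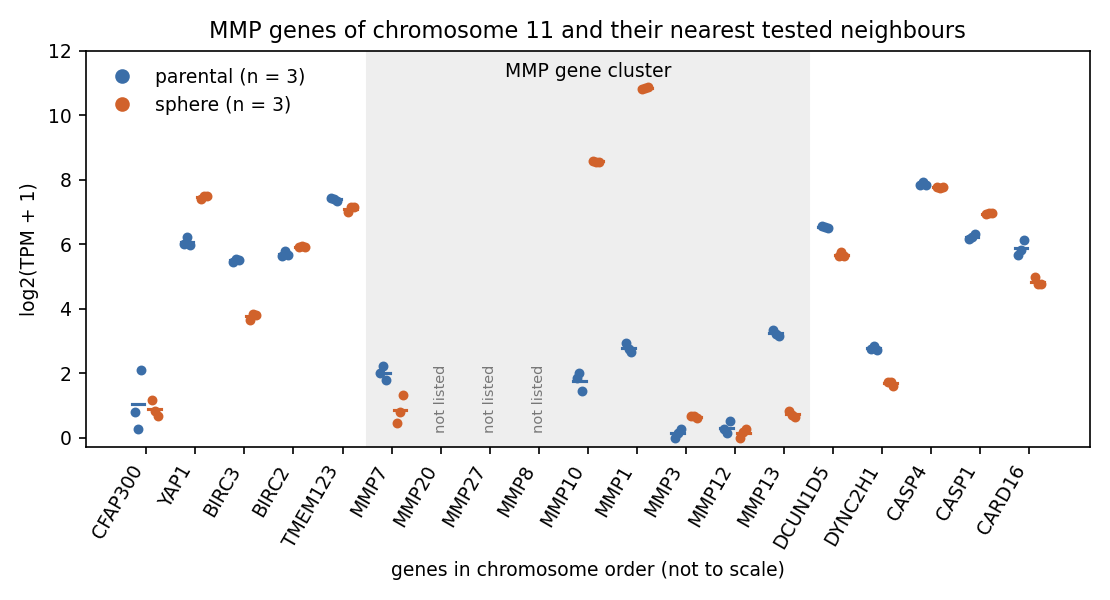
Log2(TPM + 1) in each library (points; bars are means of the log values) for the 9 MMP genes of the chromosome 11 cluster (shaded) and the 5 nearest tested genes on each side, in chromosome order and not to scale. MMP10 and MMP1 stand far above their parental values, MMP7 and MMP13 below them, and MMP20, MMP27 and MMP8 are not listed in the table.

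Promoter sequences, 250 bases before to 50 bases after the start of the gene, were at hand from RefSeq (GRCh38.p14) for 4 of the 10 members (MMP10, MMP14, TIMP1 and TIMP3) and for MMP7. The letter patterns searched were TGANTCA, the core recognised by AP-1 (Fos and Jun proteins), which reads the same class of words on either strand, TATAAA, the TATA box, and AGGAAG, a word recognised by ETS factors, the last pair on both strands. The promoters of MMP10 and MMP7 hold both TGANTCA and TATAAA, while that of MMP14 holds none of the patterns. No promoter of MMP1 or MMP13 was at hand, and whether these words bear on any rise or fall was not tested. The promoters of MMP10, MMP7 and MMP14 are shown, picked with their words and the directions of their changes known. They are printed 5′ to 3′ in the sense of the gene, with the matches of TGANTCA and TATAAA in capitals. MMP10 is at chr11:102780579-102780878 (minus strand), MMP7 at chr11:102530698-102530997 (minus strand) and MMP14 at chr14:22836335-22836634 (plus strand).
MMP10: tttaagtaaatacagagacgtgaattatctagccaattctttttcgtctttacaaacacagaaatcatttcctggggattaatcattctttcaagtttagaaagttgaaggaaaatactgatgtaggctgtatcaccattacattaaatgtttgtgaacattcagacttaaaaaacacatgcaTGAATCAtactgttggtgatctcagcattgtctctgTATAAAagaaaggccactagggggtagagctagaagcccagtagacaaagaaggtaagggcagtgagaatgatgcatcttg
MMP7: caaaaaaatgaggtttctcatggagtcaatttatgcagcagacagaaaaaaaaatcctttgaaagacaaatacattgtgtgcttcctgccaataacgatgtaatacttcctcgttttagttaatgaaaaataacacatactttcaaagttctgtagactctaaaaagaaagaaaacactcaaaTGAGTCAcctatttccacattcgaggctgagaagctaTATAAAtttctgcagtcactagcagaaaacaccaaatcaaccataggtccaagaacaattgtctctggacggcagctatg
MMP14: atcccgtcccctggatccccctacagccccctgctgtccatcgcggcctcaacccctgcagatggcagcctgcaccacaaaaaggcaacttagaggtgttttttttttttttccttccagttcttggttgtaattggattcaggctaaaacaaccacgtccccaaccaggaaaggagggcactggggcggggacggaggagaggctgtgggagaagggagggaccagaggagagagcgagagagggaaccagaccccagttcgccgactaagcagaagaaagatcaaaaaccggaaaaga

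In MMP10 the word TGAATCA begins 67 bases before the start and TATAAA 31 bases before it. In MMP7 the word TGAGTCA begins at the same 67 bases and TATAAA at 30 bases. Neither TIMP1, TIMP3 nor MMP14 held TGANTCA or TATAAA in this window. AGGAAG had 1 match in TIMP1, beginning 87 bases before the start, and 2 in MMP7, the first at 169 bases, and none in MMP10, MMP14 or TIMP3. Of 27305 promoters of the same length, 7.76% held TGANTCA, 12% held TATAAA, 1.35% held both and 33.7% held AGGAAG. Of the 12 MMP genes with a promoter in the table, 3 held TGANTCA and TATAAA, namely MMP10, MMP7 and MMP20. A match is a description of letters only and shows no binding.

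Of the 16 other MMP genes, 11 were listed and 5 passed the filter, of which 1 rose and 4 fell (3 with median-of-ratios scaling). Among all tested genes 35.1% rose and 48.2% fell. MMP28, epilysin, a secreted MMP that keratinocytes make, rose from 2.97, 2.63 and 2.09 TPM in parental to 51.2, 49.9 and 50.1 TPM in sphere libraries. Sphere libraries were all near 50 and parental ones all under 3 TPM, a log2 difference of 3.86 (SE 0.09, limma adjusted p = 2.24e-10). With MMP7, MMP11 (stromelysin-3) fell from 1.65 ± 0.12 to 0.82 ± 0.10 TPM and MMP19 from 1.41 ± 0.27 to 0.75 ± 0.10 TPM (SD, n = 3 each; limma adjusted p = 8.76e-04 and 0.00637). MMP7, MMP11 and MMP19 passed the filter through their parental values alone, so these falls are partly built into it. MMP15, a membrane-bound relative of MMP14, was at 16.4 ± 0.7 and 14.5 ± 1.0 TPM (limma adjusted p = 0.0428). Its log2 difference of -0.17 became 0.001 with median-of-ratios scaling, and the call was lost without parental replicate 1 or 2 or sphere replicate 2 or 3 (adjusted p of 0.0688 to 0.148) and with no filter (adjusted p = 0.0608).

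Of the inhibitors outside the set, TIMP4 fell from 3.02 ± 0.13 to 0.49 ± 0.35 TPM and RECK, a membrane-anchored MMP inhibitor, from 4.48 ± 0.28 to 3.23 ± 0.22 TPM (SD, n = 3 each; limma adjusted p = 1.93e-05 and 0.00266). TIMP4 too passed the filter through its parental values alone. A2M, the plasma inhibitor alpha-2-macroglobulin, and TFPI2 were near 0 in both groups.

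Activating proteases, docking partners and other inhibitors formed a list of 19 genes, of which 15 were tested. From this list 6 rose and 8 fell, beside 35.1% and 48.2% of all tested genes. Their median was -0.28, beside -0.13 over all tested genes. Docking molecules that hold MMPs at the cell surface did not all rise. SDC1, the heparan sulfate proteoglycan syndecan-1, rose from 184 ± 1.9 to 1186 ± 30.6 TPM, and CD44, a docking site for MMP9, from 537 ± 13.7 to 2086 ± 32.6 TPM (SD, n = 3 each; limma adjusted p = 5.18e-12 and 3.64e-11). The integrin chain ITGAV was at 56.4 ± 2.2 and 51.8 ± 4.4 TPM and did not pass (limma adjusted p = 0.0958; it passed as lower without sphere replicate 3, at 0.0365), and its partner ITGB3 was below the filter, at 0.27 ± 0.16 and 0.07 ± 0.03 TPM, both named after their values were seen. LCN2, which binds and stabilises MMP9, rose from 158 ± 9.2 to 350 ± 18.3 TPM (limma adjusted p = 2.07e-08). The convertases PCSK6 (19.2 ± 1.0 to 11.98 ± 0.41 TPM) and PCSK7 (15.6 ± 1.5 to 9.51 ± 0.18 TPM) fell, as did LRP1, a receptor that clears MMPs (17.7 ± 0.6 to 12.9 ± 1.0 TPM). Named after their values were seen, FURIN, the convertase that activates MMP14, rose from 46.2 ± 2.2 to 93.6 ± 3.5 TPM. PLAU, the urokinase that makes plasmin, rose from 1043 ± 7.8 to 1605 ± 59.2 TPM, whereas its substrate PLG was at no more than 0.02 TPM on average in either group. BSG, the MMP inducer EMMPRIN, fell from 762 ± 9.8 to 627 ± 26.2 TPM.

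Of 32 matrix substrates 21 were tested, 11 rose (12 with median-of-ratios scaling) and 8 fell, beside 35.1% and 48.2% of all tested genes. Their median was 0.87, beside -0.13 over all tested genes. Genes for the anchorage of epithelium to its basement membrane were among those that rose. LAMA3, a laminin chain, rose from 39.9 ± 0.6 to 234 ± 4.4 TPM, and COL17A1, the hemidesmosomal collagen, from 125 ± 1.9 to 691 ± 21.4 TPM (SD, n = 3 each; limma adjusted p at most 1.37e-11). SPARC, a collagen-binding matrix protein, fell from 174 ± 1.6 to 16.5 ± 0.6 TPM, and the basement membrane collagens COL4A1 and COL4A2 from 29.3 ± 1.4 to 5.77 ± 0.85 TPM and from 66.8 ± 2.6 to 14.7 ± 1.0 TPM (limma adjusted p at most 1.05e-08). The type IV chains COL4A5 and COL4A6, named after their values were seen, rose from 9.82 ± 1.37 to 24.3 ± 0.6 TPM and from 2.10 ± 0.22 to 13.8 ± 0.3 TPM (limma adjusted p at most 5.03e-07). Of the fibrillar collagens, also named after their values were seen, COL1A1 rose from 8.15 ± 0.06 to 16.1 ± 0.9 TPM and COL5A1 fell from 17.2 ± 0.3 to 12.2 ± 0.9 TPM (limma adjusted p = 4.88e-07 and 8.09e-05), and COL1A2 and COL3A1 were under 1 TPM on average in both groups.

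Transcription factors of the AP-1, ETS and RUNX families, known to act on MMP promoters, were all tested. From this list of 15, 8 rose and 6 fell (5 with median-of-ratios scaling), beside 35.1% and 48.2% of all tested genes. Their median was 0.21, beside -0.13 over all tested genes. The Fos and Jun proteins, which pair to form AP-1, went both ways. FOS rose from 3.34 ± 0.37 to 30.9 ± 0.9 TPM, JUNB from 78.3 ± 8.0 to 403 ± 12.7 TPM and FOSB from 1.20 ± 0.06 to 6.53 ± 0.73 TPM (SD, n = 3 each; limma adjusted p at most 7.70e-08). FOSL2 fell from 56.5 ± 2.0 to 33.0 ± 0.1 TPM. FOSL1, the most abundant of the AP-1 genes of parental cells and named after its values were seen, was at 261 ± 9.8 and 227 ± 8.7 TPM (limma adjusted p = 0.00149; 0.617 with median-of-ratios scaling). Of the ETS factors, ETV1 fell from 9.69 ± 0.39 to 2.02 ± 0.23 TPM and ETS1 from 23.1 ± 0.4 to 15.5 ± 0.6 TPM. Others of that family, named after their values were seen, went both ways. ETV4 rose from 19.6 ± 1.3 to 35.5 ± 1.6 TPM and ETS2 from 59.6 ± 1.4 to 86.6 ± 0.8 TPM (limma adjusted p at most 7.91e-07). ETV5 fell from 26.15 ± 0.63 to 18.93 ± 1.04 TPM (limma adjusted p = 3.92e-05). ELF3 was at 39.5 ± 3.5 and 45.8 ± 3.2 TPM (limma adjusted p = 0.0210), a call lost without parental replicate 1 or 3 or sphere replicate 1 (adjusted p = 0.0511 to 0.0835).

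Of 12 cytokines and growth factors that induce MMPs 11 were tested. From this list 7 rose and 3 fell (2 with median-of-ratios scaling), beside 35.1% and 48.2% of all tested genes. Their median was 0.50, beside -0.13 over all tested genes. Ligands of the EGF receptor led the rises. AREG, amphiregulin, rose from 32.2 ± 0.8 to 470 ± 1.9 TPM, TGFA from 38.6 ± 1.3 to 171 ± 4.0 TPM and EREG, epiregulin, from 16.2 ± 1.1 to 47.6 ± 6.4 TPM (SD, n = 3 each; limma adjusted p at most 1.82e-07). The inflammatory cytokines IL6 and TNF fell, from 38.4 ± 1.3 to 1.5 ± 0.15 TPM and from 55.9 ± 2.7 to 7 ± 0.58 TPM (limma adjusted p at most 2.56e-10). The more abundant IL1A and IL1B, named after their values were seen, rose from 152 ± 9.0 to 259.9 ± 13.2 TPM and from 327 ± 7.6 to 361 ± 17.4 TPM (limma adjusted p = 3.96e-07 and 0.00982).

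**Figure D5:**
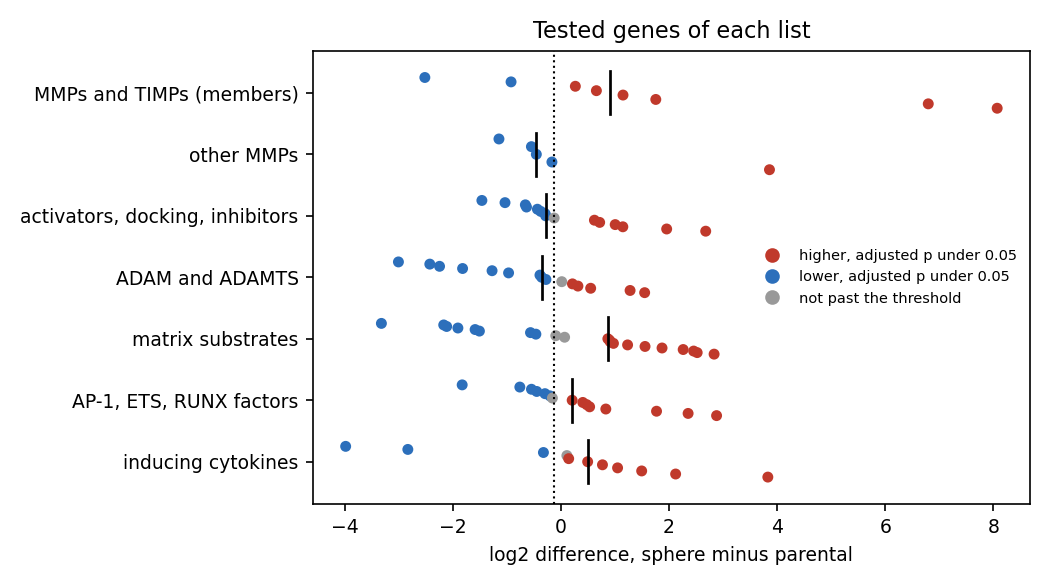
Log2 difference (sphere minus parental) of every tested gene of the member set and of 6 related lists, coloured by direction and by whether the limma adjusted p was under 0.05. Black bars are list medians and the dotted line is the median of all tested genes, -0.13; the members reach from -2.52 (MMP13) to 8.07 (MMP1).

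Fibroblasts, leukocytes and endothelium also make MMPs and TIMPs, and their markers were measured beside those of epithelium. The 8 epithelial markers summed to 3868 to 3969 TPM in parental and 15740 to 15870 TPM in sphere libraries. All 8 passed the test, 5 higher and 3 lower, while 83.4% of all tested genes passed. The higher sum was carried by KRT14 (4.69 ± 0.21 to 7705 ± 79.5 TPM) and KRT5 (722 ± 30.5 to 5996 ± 49.0 TPM), keratins of basal epithelium, while KRT8, KRT18 and EPCAM were the lower ones (KRT18 not past the threshold with median-of-ratios scaling, limma adjusted p = 0.714); these were named after their values were seen. Of 8 fibroblast markers 6 were listed, summing to 3.89 to 4.22 TPM in parental and 0.47 to 0.63 TPM in sphere libraries, most of it PDGFRB in parental cells (2.63 ± 0.17 TPM), with COL3A1 at 0 in each parental library. Of 8 leukocyte markers 7 were listed, at 6.27 to 8.38 and 6.21 to 6.53 TPM, led by CSF1R (4.66 ± 0.996 and 4.13 ± 0.12 TPM; limma adjusted p = 0.339), with PTPRC and CD3E at 0 in each parental library. Of 7 endothelial markers 6 were listed, at 11.25 to 11.95 TPM in parental and 0.26 to 0.43 TPM in sphere libraries, nearly all of it CDH5 in parental cells (10.99 ± 0.29 TPM, above parental MMP1, MMP13, MMP10 and TIMP3), and PECAM1 averaged under 1 TPM in both groups. The part of these genes in the MMP and TIMP values was not tested.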

How the data were processed

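Total RNA of 3 parental and 3 sphere libraries was read in single-end runs of 50 bases on the BGISEQ-500 platform (source: the labels' protocols). The authors deposited TPM for 17110 genes, per the file headers, in columns named Control and Sphere with a replicate number; Control was taken as parental, the only other group. HISAT and Bowtie2 (no versions) and GRCm38.p6, a mouse build, appear in the submitters' processing notes, although 17052 of the gene IDs match human RefSeq genes; the build behind the values is unclear, and coordinates given belong to RefSeq only. The sources used here give no counter, annotation or strand setting. TPM keeps no depth, so precision rests on the spread between 3 libraries.

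Genes with a mean of at least 1 TPM (12261) were log2-transformed after adding 1 and fitted in limma 3.58.1 (R 4.3.3, eBayes with trend, two-sided, Benjamini-Hochberg, threshold 0.05). The code was tried beforehand on simulated data in which few genes differed. That setting is unlike these data, where most genes are called, so the trial does not vouch for the calls here. No gene was imputed and no library dropped. The members and all lists were chosen with earlier results of these data known. Genes named were the members, the other tested MMPs, TIMP4, RECK, the cluster's neighbours, the leading marker of each other cell type, and up to 3 rises and 3 falls per list, taken from called genes with separate groups and at least 5 TPM in the higher group; some list genes that this rule or a list holds are not reported here; exceptions are marked in the text, and overlapping genes and the scarce MMP12, A2M, TFPI2, PLG, COL1A2, COL3A1, PTPRC, CD3E and PECAM1 were also named after their values were seen. The fit was repeated without 1 library at a time, with a replicate block, array weights, no trend, a robust prior, median-of-ratios scaling, a filter at 5 TPM, no filter, and a pseudocount of 0.1. Motifs, shared 50-base words (GENCODE 29) and sums were computed in Python 3.11.15 with pandas 2.3.3.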

Additional observations from a re-analysis of the deposited data

How the results depend on the processing

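The 8 tested members kept their direction and their call in all alternatives that could test them. MMP9 ranged from 1.02 to 2.48, the latter with a pseudocount of 0.1, MMP13 from -3.52 to -2.40, and TIMP3 from 0.21 to 0.41 with adjusted p of at most 0.0479. MMP9 fell below the filter in 4 alternatives and MMP13 and TIMP3 in 1 each. Genes past the threshold numbered 8485 to 11503. Median-of-ratios scaling shifted the median of all tested genes from -0.13 to 0.03 and turned the sign of MMP15 (0.001), CASP4 (0.071) and CSF1R (0.017). ITGAV (0.051) and SYN3 (0.159), neither of which passed, also turned, SYN3 further without parental replicate 1 or 3 or sphere replicate 1 (-0.115 to 0.061 without 1 library). CSF1R also turned without parental replicate 3 (-0.215 to 0.012 without 1 library). CASP4 lost its call under that scaling, with no trend and without parental replicate 2 or sphere replicate 2 or 3 (adjusted p = 0.0705 to 0.108). With that scaling the summed MMP TPM was 65.3 and 2544 and the summed TIMP TPM 174 and 210 in parental and sphere libraries. With all MMP genes of the table the MMP sum was 97.2 and 2469. Without 1 replicate of each group the MMP sums were 68.9 to 70.7 and 2378 to 2413, and the TIMP sums 183 to 186 and 197 to 200.2. Counts of other MMPs were 3 higher with no filter and 1 lower with a mean of at least 5 TPM, and 2 to 4 lower when 1 library was left out (2 without parental replicate 2, where MMP19 was not tested). The stricter filter, which tests fewer genes, left 5 partner genes lower, and 3 ADAM or ADAMTS genes higher and 5 lower. With no filter, which tests more genes, 15 ADAM or ADAMTS genes were lower. The genes tested differ between these filters, and no share over all tested genes is given for them. Nothing about the lists, or about the other MMPs, is therefore read from these counts. A replicate block changed no call of a member: deviations from the group means correlated at 0.0177, -0.0179 and -0.0545 between libraries of one number, so the replicate numbers were not taken as pairs, and the labels do not say that they mark a shared batch. With a replicate block 10192 genes passed.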

Other observations

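ADAM and ADAMTS proteases, relatives of the MMPs with a disintegrin domain that shed membrane proteins or cut proteoglycans, formed a further list. Of its 29 genes 28 were listed and 15 were tested. From this list 5 rose and 9 fell (8 with median-of-ratios scaling), beside 35.1% and 48.2% of all tested genes. Their median was -0.35, beside -0.13 over all tested genes. ADAM28, a secreted or membrane-bound sheddase, fell from 11.9 ± 0.7 to 0.61 ± 0.17 TPM, ADAMTS12 from 5.08 ± 0.36 to 0.14 ± 0.18 TPM and ADAM12 from 8.29 ± 0.18 to 2.86 ± 0.41 TPM (SD, n = 3 each; limma adjusted p at most 6.06e-07), ADAM28 and ADAMTS12 passing the filter through their parental values alone. ADAM8 rose from 22.9 ± 1.7 to 68.9 ± 3.6 TPM, ADAMTS1, a versican-cutting protease, from 4.37 ± 0.24 to 12.02 ± 0.39 TPM and ADAM9 from 107 ± 3.3 to 125 ± 6.0 TPM (limma adjusted p at most 0.00159). ADAM10 and ADAM17, the main sheddases of Notch and of EGF receptor ligands and named after their values were seen, were at 84.4 ± 1.5 and 65.8 ± 1.9 TPM and at 37.8 ± 2.3 and 31.0 ± 0.2 TPM in parental and sphere libraries (limma adjusted p = 1.88e-05 and 8.69e-04; with median-of-ratios scaling ADAM17 did not pass, at 0.103).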
